A study of Homo sapiens with 15 samples.

Results

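The genes described here are 10 transcription factors of the primitive streak and the early mesoderm, TBXT, MIXL1, EOMES, MESP1, MESP2, TBX6, GSC, LHX1, MSGN1 and FOXF1, chosen by name from the 48777 genes of the count and TPM tables, and each had a row there. They were followed by bulk RNA-seq of total RNA depleted of ribosomal RNA in H1, an established line of human embryonic stem cells, over a cardiac differentiation on laminin. The groups were days 0, 4, 9, 11 and 20, with 3 replicates labelled biological per day and 15 libraries in all. Per the sample labels, all 5 groups were H1 cells with no genetic change named and were grown on laminins LN-521 and LN-221, although the deposited sample table lists LN-521 alone for day 0. On day 0 the cells were in NutriStem, a stem cell medium. The label on treatment places CHIR99021, which inhibits the kinase GSK3 and so switches on Wnt signalling, in RPMI with B27 lacking insulin on day 4 for a day, and IWP2, which blocks the release of Wnt ligands, on day 7 for 2 days. The label on growth gives CHIR99021 on days 1 and 3 and IWP2 on day 5 instead. The study's methods list day 7 where the labels give day 9. All libraries come from 1 cell line, and none was taken between days 4 and 9.

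The primitive streak is the site in the early embryo where epiblast cells, told to do so by Wnt and Nodal ligands, switch on TBXT, MIXL1 and EOMES, lose their epithelial form and become mesoderm or endoderm. Cells of the anterior streak use GSC and LHX1, the earliest heart-forming cells pass through MESP1 downstream of EOMES, the presomitic mesoderm that builds the somites uses TBX6, MSGN1 and MESP2, and FOXF1 comes on later in lateral plate and splanchnic mesoderm. In cultured stem cells a pulse of Wnt signalling sets off the same order of genes, most of which are on only for a short time.

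Library totals lay between 11990302 and 33469703 counts, so 3 counts, taken as the limit that a count of 0 allows, stood for 0.0896 to 0.250 CPM (counts scaled to the library total). The 6 stem cell markers summed to between 4434 and 6444 TPM (a level per length of gene, scaled to the library) in the libraries of days 0 and 4 and to between 63.6 and 112 TPM on day 20, while the 5 cardiomyocyte markers went from between 8.34 and 13.1 TPM on days 0 and 4 to between 4691 and 20951 TPM on day 20. The day 20 library of plate 2 labelled 2_3 stood apart. Its RNA integrity number was 6.1, against 8.8 to 10 elsewhere, and it had counts for all 174 of the autosomal protein-coding genes of at least 2000 bases that held no more than 2 counts over days 0 to 11 together. Day 20 plate 6 had counts for 132 of these silent genes, day 20 plate 2 for 33, and the libraries of days 0 to 11 for 1 to 44. The share of uniquely mapped reads ran from 35% in day 0 replicate 3 to 86% in day 0 replicate 2. The p-values measure the spread between replicates labelled biological. Results of day 20 are therefore given with and without library 2_3. As these are bulk samples, fewer cells of a type and less RNA per cell cannot be told apart in any result.

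The upstream sequences of 4 regulators that rose together between days 4 and 9 are shown first, because Nodal and Wnt signals reach such genes through FOXH1 and TCF/LEF proteins. They are the 250 bases before the RefSeq start of MIXL1 (chr1:226223414-226223663, plus strand), MESP2 (chr15:89776082-89776331, plus strand), EOMES (chr3:27722324-27722573, minus strand) and GSC (chr14:94770114-94770363, minus strand) in GRCh38.p14, written 5′ to 3′ along the gene. Capitals mark matches, on either strand, to the letters AATCCACA for FOXH1, CTTTGAT for TCF/LEF and AGGTGTGA for T-box proteins such as TBXT and EOMES.
MIXL1: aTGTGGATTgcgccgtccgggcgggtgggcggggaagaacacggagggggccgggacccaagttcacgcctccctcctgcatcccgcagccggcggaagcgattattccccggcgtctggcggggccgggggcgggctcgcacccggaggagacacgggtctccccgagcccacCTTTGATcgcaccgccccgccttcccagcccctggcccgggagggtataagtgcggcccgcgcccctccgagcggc
MESP2: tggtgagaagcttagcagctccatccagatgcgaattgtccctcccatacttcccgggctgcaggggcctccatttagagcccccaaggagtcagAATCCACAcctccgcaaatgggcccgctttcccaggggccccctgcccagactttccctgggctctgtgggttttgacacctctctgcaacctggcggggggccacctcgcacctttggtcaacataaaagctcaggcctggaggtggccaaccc
EOMES: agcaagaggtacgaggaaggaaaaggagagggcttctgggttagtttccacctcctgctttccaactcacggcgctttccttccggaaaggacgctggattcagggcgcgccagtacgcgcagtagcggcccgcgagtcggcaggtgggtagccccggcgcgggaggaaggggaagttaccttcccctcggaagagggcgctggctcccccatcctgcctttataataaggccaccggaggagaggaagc
GSC: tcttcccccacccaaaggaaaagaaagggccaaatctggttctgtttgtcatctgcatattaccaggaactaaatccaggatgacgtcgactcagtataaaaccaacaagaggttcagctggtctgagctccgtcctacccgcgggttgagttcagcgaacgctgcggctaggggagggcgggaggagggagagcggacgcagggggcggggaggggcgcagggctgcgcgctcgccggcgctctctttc

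The MIXL1 sequence held the FOXH1 letters as their reverse complement, starting 249 bases before the RefSeq start, and the TCF/LEF letters 76 bases before it. The MESP2 sequence held the FOXH1 letters 155 bases before its RefSeq start, and the EOMES and GSC sequences held none of the 3. The RefSeq starts can differ from the GENCODE spans given below. The MESP2 and EOMES sequences lie inside those spans, and the MIXL1 sequence runs into its span. The table held an upstream sequence for 7 of the 10 regulators, and TBXT (with 2 start sites), TBX6 and MSGN1 had no match either. MESP1, LHX1 and FOXF1 were without an entry. Of all 35116 upstream sequences of this length, 249 (0.709%) held the FOXH1 letters, 794 (2.26%) the TCF/LEF letters and 276 (0.786%) the T-box letters. The 3 motifs do not overlap in the sequences shown, and a match is a description of the letters only.

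On days 0 and 4 most of the 10 regulators were close to silent. TBX6 was the highest of them, at 4.69 ± 2.70 TPM on day 0 and 5.11 ± 0.913 TPM on day 4 (mean ± SD, n = 3), ahead of LHX1 (1.60 ± 1.38 and 1.92 ± 0.422 TPM). MIXL1 and MESP2 were between 0.762 and 2.19 TPM in each of these 6 libraries, and TBXT between 0.185 and 0.511 TPM. EOMES had 0, 3 and 1 counts on day 0 and 3, 4 and 5 on day 4, and FOXF1 had 4 counts in all on day 0 and 2 on day 4. GSC had 1 count over day 0 and 9 over day 4, a ratio of pooled CPM of 8.29 with a 95% exact interval from 1.15 to 363 that covers counting error only. MSGN1 had no count in any of the 6 libraries. Between days 0 and 4 none of the 4 regulators with enough counts to be tested by edgeR (MIXL1, MESP2, TBX6 and LHX1) passed the threshold, an adjusted p-value under 0.05, and their log2 fold changes lay between 0.07 and 0.40. Over all 20964 genes tested the share called was 0%, with 741 genes (3.53%) at an unadjusted p-value under 0.05. DESeq2 called no gene either, and edgeR without its filter on low counts called 64.

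**Figure D1:**
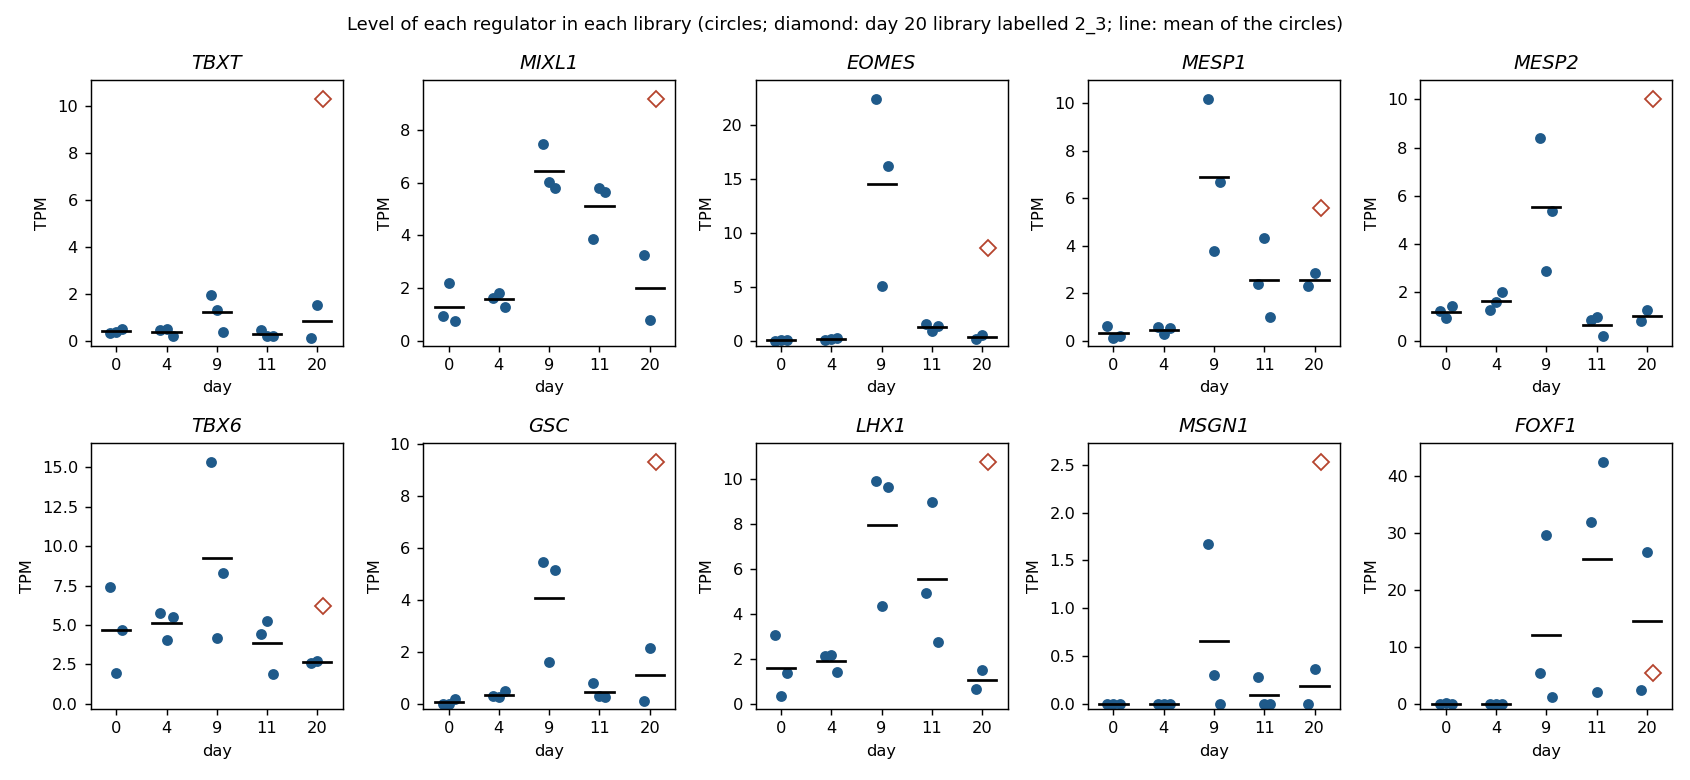
Level of each regulator in TPM (y axis, linear, starting at 0 and scaled per gene) in each of the 15 libraries by day (x axis), with circles for libraries, a diamond for the day 20 library labelled 2_3, and a line for the mean of the circles. Leaving out that library, 9 of the 10 genes were highest on day 9 and FOXF1 on day 11, and TBXT and MSGN1 did not exceed 1.93 TPM.

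By day 9 regulators of the anterior streak, of the cardiac route and, with TBX6 and MESP2, of the presomitic mesoderm were present. GSC was at 11 to 48 counts a library, TBXT at 7 to 25 and MSGN1 at 0 to 5. Of the 8 regulators tested between days 4 and 9, 7 were higher on day 9 and none was lower, where 49% of all 21252 genes tested were called, 24.3% higher and 24.7% lower. The 7 were EOMES, FOXF1, MESP1, GSC, LHX1, MIXL1 and MESP2, and for each the lowest day 9 library lay above the highest day 4 library. The share of all genes separated in this way is not given here, so the separation cannot be called particular to the regulators. The median log2 fold change of the 8 was 2.81, against 0.01 over all genes tested. The lanes of the sequencer held 1 library of each of these days each. Without overlap the 7 genes had to be higher on day 9 in all 3 lanes, so the lanes add no support. TBX6 did not pass, and TBXT and MSGN1 had too few counts to be tested. On day 9 the levels ran from EOMES at the top to MSGN1 at the bottom, and from EOMES down to GSC each gene overlapped the next in the range of its 3 libraries.

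**Figure D2:**
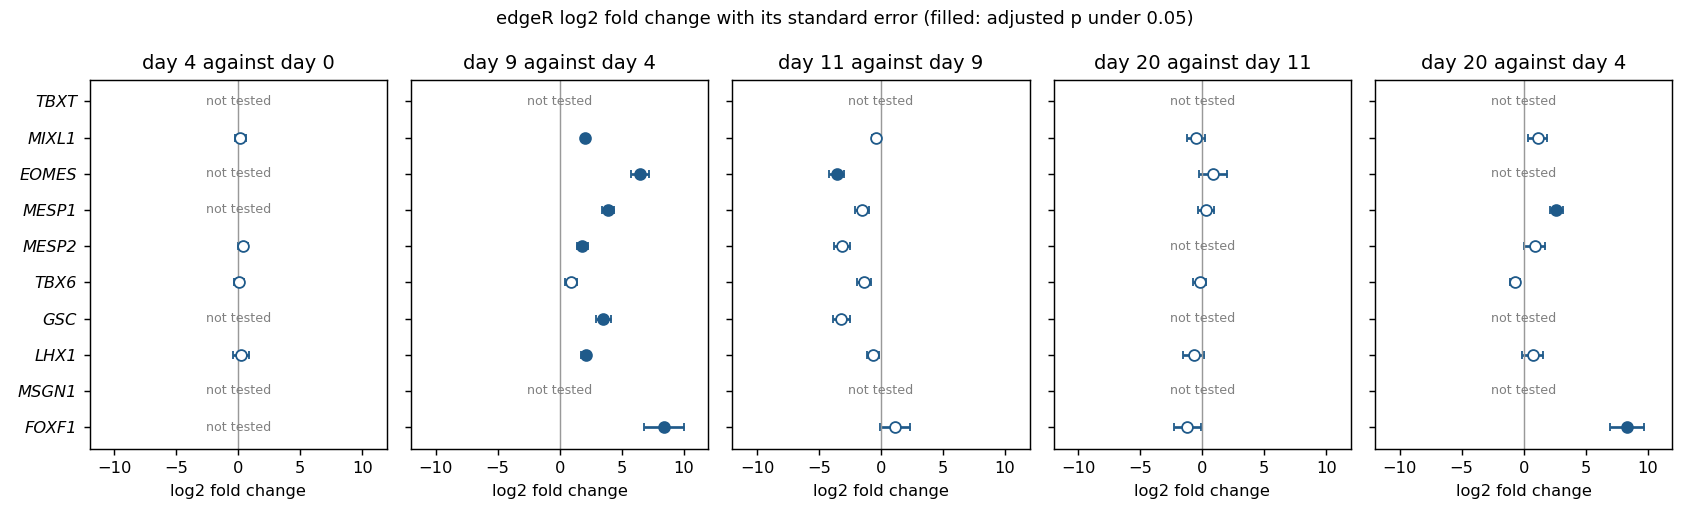
edgeR log2 fold change of each regulator (x axis) with its standard error (bars) in the 5 comparisons, with filled points for an adjusted p-value under 0.05 and "not tested" where counts were too low. The 7 filled points of day 9 against day 4 lie between 1.81 and 8.44, and EOMES is the only filled point of day 11 against day 9.

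EOMES (ENSG00000163508, chr3:27715949-27722711, minus strand in GRCh38) encodes a T-box factor that opens both the cardiac mesoderm and the definitive endoderm programmes. It was at 22.4 TPM in day 9 plate 2, 16.2 TPM in the day 9 library with no plate number and 5.11 TPM in day 9 plate 6, after 0.0990 to 0.222 TPM on day 4. All day 9 libraries were therefore far above all day 4 libraries, although they differed from each other several fold. The increase was 90.5-fold (log2 fold change 6.50 ± 0.74, SE, edgeR adjusted p = 0.000331), and the adjusted p-value stayed at or below 0.0107 in all 14 alternative analyses. On day 11 EOMES was at 1.59, 0.896 and 1.40 TPM in plates 2, 5 and 6, below every day 9 library. This decrease (log2 fold change -3.58 ± 0.61, adjusted p = 0.0330) was the only one of the 8 regulators tested that passed between days 9 and 11, where 2.39% of the 20679 genes tested were called, 1% lower and 1.39% higher. It was lower in all 3 lanes, as follows from the lack of overlap, with differences of -4.24 to -1.58 on the scale of log2(CPM + 0.5). It no longer passed without any of 5 of the 6 libraries (adjusted p between 0.0805 and 0.127), in the fit of all 15 libraries (0.0789), without the filter on low counts (0.0599) or with the plate number as a block (0.0576).

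MIXL1 (ENSG00000185155, chr1:226223618-226227060, plus strand), a paired-type homeobox factor that helps streak cells choose between mesoderm and endoderm, was at 7.48 TPM in day 9 plate 2, 6.05 in plate 6 and 5.80 in the library with no plate number, against 1.28 to 1.82 TPM on day 4. In TPM these day 9 libraries lay close together, and in CPM they were at 4.61, 3.18 and 3.16 in the same order. Genes of under 200 bases held 22.7%, 7.13% and 10.8% of their TPM. Rescaled without such genes, the day 9 mean of MIXL1 went from 6.44 ± 0.909 to 7.56 ± 1.83 TPM (mean ± SD, n = 3). The increase over day 4 was 4.15-fold (log2 fold change 2.05 ± 0.27, edgeR adjusted p = 0.000391). On day 11 MIXL1 was still at 3.87, 5.79 and 5.67 TPM in plates 2, 5 and 6. The ranges of the days did not overlap, but the log2 fold change of -0.40 ± 0.29 did not pass (adjusted p = 0.550), and the exact permutation test gave 0.1, the smallest p-value that 3 libraries against 3 allow.

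TBXT (ENSG00000164458, chr6:166157656-166168700, minus strand), the T-box factor known as brachyury and the defining gene of the streak, was low in every library of days 0 to 11. It had 10, 8 and 3 counts on day 4, in plates 1, 2 and 5. On day 9 it had 25 counts in plate 2, 19 in plate 6 and 7 in the library with no plate number, and on day 11 it had 7, 3 and 3 in plates 2, 5 and 6. The days overlapped (exact permutation p = 0.3 for day 9 against day 4), and the mean of day 9 was 1.20 ± 0.789 TPM. In the fits that could include it, the log2 fold change from day 4 to day 9 was 1.62 with DESeq2 (adjusted p = 0.0902) and 1.57 with edgeR without the filter (0.0227), and without the day 9 library that has no plate number edgeR gave 2.06 (0.00683). Exons of TBXT overlap those of LNCDAT, a gene on the opposite strand, and whether the counting used strand is not given in the sources used here, so reads of the pair cannot be told apart.

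The homeobox factors of the anterior streak, GSC and LHX1, both rose by day 9. GSC (ENSG00000133937, chr14:94768223-94770113, minus strand), a repressor known from the organizer, was at 5.45 TPM in day 9 plate 2, 5.14 in the library with no plate number and 1.59 in plate 6, after 0.266 to 0.513 TPM on day 4. LHX1 (ENSG00000273706, chr17:36936785-36944612, plus strand), a LIM homeobox factor of the anterior streak and later of the kidney, was at 9.95, 9.64 and 4.35 TPM in the same 3 libraries, after 1.43 to 2.17 TPM. In both genes plate 6 was the lowest day 9 library, and still above every day 4 library. The increase was 11.5-fold for GSC (log2 fold change 3.53 ± 0.63, adjusted p = 0.00204) and 4.28-fold for LHX1 (2.10 ± 0.38, adjusted p = 0.00258). The call for LHX1 was lost in the fit of all 15 libraries (adjusted p = 0.0757).

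On day 11 GSC was down to 0.809, 0.305 and 0.253 TPM in plates 2, 5 and 6, below each day 9 library, but with a log2 fold change of -3.19 ± 0.69 it missed the threshold (adjusted p = 0.0603). It passed with DESeq2 (adjusted p = 0.00167), with the lane as a block in edgeR (0.0329), without the filter on low counts (0.00142) and without day 9 plate 6 (0.0240). LHX1 was at 4.92, 8.99 and 2.75 TPM in plates 2, 5 and 6 and overlapped day 9 (log2 fold change -0.62 ± 0.50, adjusted p = 0.589). On day 11 the mean of GSC was 0.456 ± 0.307 TPM and that of LHX1 5.56 ± 3.17 TPM, and the difference between the genes in their change was not tested. Exons of LHX1 overlap those of a gene on the opposite strand.

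MESP1 and MESP2, neighbouring bHLH genes on chromosome 15, are known for the heart and for the segment borders of the somites, respectively. MESP1 (ENSG00000166823, chr15:89749875-89751249, minus strand) was at 10.2 TPM in day 9 plate 2, 6.68 in the library with no plate number and 3.79 in plate 6, after 0.283 to 0.561 TPM on day 4. MESP2 (ENSG00000188095, chr15:89760591-89778754, plus strand) was at 8.40, 5.39 and 2.88 TPM in the same libraries, after 1.29 to 2.00 TPM. The order of the 3 libraries was the same in both genes. MESP1 rose 14.7-fold (log2 fold change 3.88 ± 0.49, adjusted p = 0.000382) and MESP2 3.52-fold (1.81 ± 0.44, adjusted p = 0.00960). The call for MESP2 was lost in the fit of all 15 libraries (adjusted p = 0.0886). The genes are paralogs, so reads of any stretch they share are uncertain, and the length behind the TPM of MESP1, 2369 bases as worked back from the deposited counts and TPM, is longer than its 1094 exon bases in GENCODE v44.

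By day 11 MESP1 was higher than MESP2 in every library, as it had been on day 9, while on day 4 MESP2 was the higher. MESP1 was at 2.38, 4.31 and 1.01 TPM in day 11 plates 2, 5 and 6, and plate 5 was above the lowest day 9 library. MESP2 was at 0.860, 0.972 and 0.179 TPM, below every day 9 library and also below its own level on day 4. The log2 fold changes were -1.52 ± 0.58 for MESP1 (adjusted p = 0.237) and -3.14 ± 0.65 for MESP2 (0.0532), and neither passed. With the sequencing lane as a block both passed, with adjusted p-values of 0.0456 and 0.0167, and DESeq2 gave 0.0702 and 7.24e-05. MESP1 was lower on day 11 in all 3 lanes. MESP2 was too, which follows from the lack of overlap between its days.

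Of the presomitic genes TBX6 and MSGN1, TBX6 did not pass in the main edgeR test of any of the 5 comparisons. MSGN1 had too few counts to be tested in any of them. TBX6 (ENSG00000149922, chr16:30085793-30091924, minus strand), a T-box factor that turns presomitic cells away from a neural fate, was at 15.3 TPM in day 9 plate 2, 8.32 in the library with no plate number and 4.20 in plate 6, and plate 6 lay within the day 4 range of 4.07 to 5.78 TPM. Its log2 fold change was 0.90 ± 0.46 (adjusted p = 0.141), and of 14 alternative analyses it passed only in the one without day 9 plate 6 (1.30, adjusted p = 0.00710). On day 11 it was at 4.46, 5.28 and 1.88 TPM in plates 2, 5 and 6 (log2 fold change -1.36 ± 0.57, adjusted p = 0.282), where of 15 alternatives only the one with the plate number as a block passed (adjusted p = 0.0119). MSGN1 (ENSG00000151379, chr2:17816460-17817798, plus strand), a bHLH factor that drives cells out of the streak into presomitic mesoderm, had 6 counts over the 3 day 9 libraries (5, 1 and 0), 1 count on day 11 and none on days 0 and 4. At these depths MSGN1 was not detectable above 3 counts in 13 of the 15 libraries, and the exceptions, day 9 plate 2 and day 20 library 2_3, had 5 and 6 counts.

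FOXF1 (ENSG00000103241, chr16:86510527-86515422, plus strand), the forkhead factor of lateral plate and splanchnic mesoderm, was at 1.27 TPM in the day 9 library with no plate number, 5.36 in plate 2 and 29.6 in plate 6, at 32.0, 2.08 and 42.4 TPM in day 11 plates 2, 5 and 6, and at 2.52, 5.44 and 26.6 TPM in day 20 plate 2, library 2_3 and plate 6. It was therefore on by day 9 and then varied more between libraries of 1 day than between days. The 695 counts of day 9 against 2 on day 4 gave a ratio of pooled CPM of 423 with a 95% exact interval from 117 to 3498 for counting error only, and edgeR gave a log2 fold change of 8.44 ± 1.61 (adjusted p = 0.00366), a size that depends on the prior count. The call was lost when low genes were not filtered out (adjusted p = 0.0549). Between days 9 and 11 the log2 fold change was 1.11 ± 1.20 (adjusted p = 0.703).

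The libraries of day 9 differed in which regulators were high. Plate 6 was the highest of the 3 day 9 libraries in FOXF1 and the lowest in EOMES, GSC, LHX1, MESP1, MESP2 and TBX6, and plate 2 was the highest in each of the 9 other regulators. The library with no plate number was the lowest in FOXF1 and also in MIXL1, TBXT and MSGN1. Plate 2 also had the lowest RNA integrity number of the 3, 8.9, against 9.6 in plate 6 and 10 in the library with no plate number. It had the lowest total of the 3, 16260897 counts, and 46% uniquely mapped reads, against 73% in each of the others. It had counts for 44 of the 174 silent genes, against 30 in plate 6 and 11 in the library with no plate number. The part of RNA quality, depth and mapping in the levels of the regulators was not tested. The summed cardiomyocyte markers were at 1260 TPM in plate 6, 417 in plate 2 and 178 in the library with no plate number, and the summed definitive endoderm markers at 237, 361 and 500 TPM. On day 11 the pattern was not the same. Plate 5, with FOXF1 at 2.08 TPM, had the most of LHX1, MESP1, MESP2, MIXL1 and TBX6 but the least EOMES, and its cardiomyocyte markers summed to 20556 TPM, against 5562 in plate 2 and 3564 in plate 6. The part of these other cell types in the levels of the regulators was not tested. FENDRR, a long non-coding RNA that starts 1428 bases from FOXF1 on the opposite strand, had the same order as FOXF1 among the 3 libraries of day 9 and among those of day 11, at 0 TPM in the day 9 library with no plate number, 0.119 in plate 2 and 1.24 in plate 6, and at 3.31, 0.198 and 4.32 TPM in day 11 plates 2, 5 and 6.

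**Figure D3:**
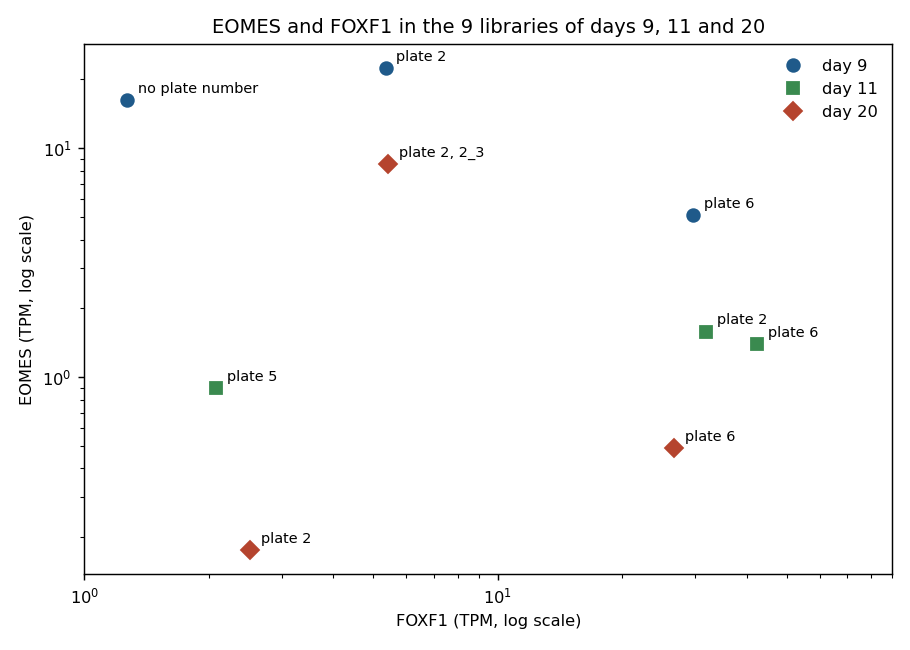
EOMES (y axis) against FOXF1 (x axis), both in TPM on log scales, in the 9 libraries of days 9, 11 and 20, labelled by plate. The day 9 libraries run from 16.2 and 22.4 TPM of EOMES at low FOXF1 to 5.11 TPM at 29.6 TPM of FOXF1, and the day 11 libraries hold EOMES between 0.896 and 1.59 TPM over the whole range of FOXF1.

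On day 20 the levels of several regulators rested on library 2_3. Those of FOXF1, MESP1 and TBX6 did not rest on it alone. FOXF1 was at 26.6 TPM in plate 6, and MESP1 and TBX6 were at 2.31 to 2.84 TPM in plates 2 and 6. TBXT had 2 counts in plate 2, 18 in plate 6 and 106 in library 2_3, and EOMES had 4, 8 and 123. In 9 of the 10 regulators 2_3 was the highest day 20 library, and FOXF1 was the exception. The 174 silent genes had a median of 2.79 TPM in 2_3, with 0.782 TPM at the 5th and 5.66 TPM at the 95th percentile, and 7 of the 10 regulators were above that 95th percentile, led by LHX1 at 10.8, TBXT at 10.3 and MESP2 at 10.0 TPM. MESP1, MSGN1 and FOXF1 were between the 5th and the 95th percentile. By TPM in 2_3, TBX6 at 6.18 ranked 26772 and MESP1 at 5.60 ranked 28840 among the 48777 genes. Most of all genes were therefore above that 95th percentile as well, so the 7 of 10 cannot be called particular to the regulators. Developmental genes of other tissues were there too. Among the listed genes outside the 10, 11 were under 1 TPM in all 12 libraries of days 0 to 11, and these were at 2.78 to 11.9 TPM in 2_3, with PAX2 of the kidney at 11.9, EMX2 at 8.13 and the neural gene NEUROG2 at 7.25 TPM. Their median was 5.24 TPM, and 5 of the 11 were above the 95th percentile of the silent genes. This comparison was chosen after the values were seen and is a description.

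**Figure D4:**
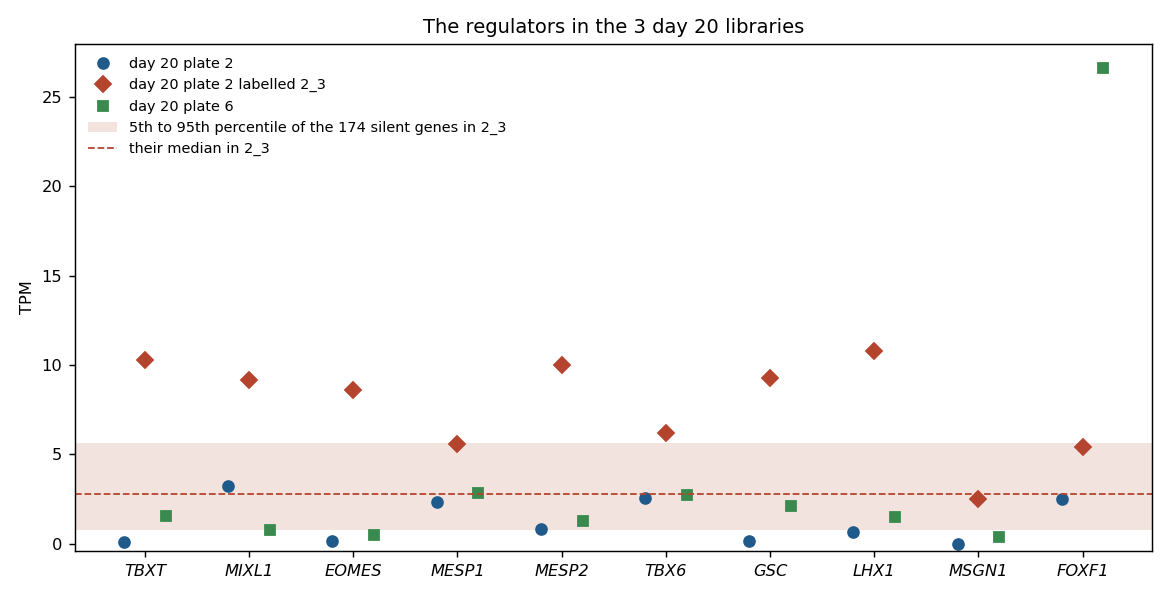
TPM of each regulator (y axis, linear) in the 3 day 20 libraries (symbols), with the 5th to 95th percentile (band) and median (dashed line) of the 174 silent genes in library 2_3. The symbols of 2_3 lie above the band for 7 of the 10 genes, and those of plate 2 do not exceed 3.25 TPM. Most of all genes in 2_3 were above that band too.

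Compared with day 4, 2 of the 6 regulators tested were higher on day 20 and none was lower, where 30.8% of the 22024 genes tested were called, 17.6% higher and 13.3% lower. They were MESP1, at 2.31, 5.60 and 2.84 TPM in plate 2, library 2_3 and plate 6 (log2 fold change 2.64 ± 0.54, edgeR adjusted p = 0.00986), and FOXF1, with 547 counts against 2 and a ratio of pooled CPM of 354 (95% exact interval from 97.5 to 2931, adjusted p = 0.00494). Without 2_3 both still passed, with adjusted p-values of 0.00439 and 0.00287, and TBX6 then passed as lower (log2 fold change -1.02, adjusted p = 0.0306). MESP1 no longer passed without any of the day 4 libraries (adjusted p between 0.0646 and 0.0894). MIXL1, MESP2 and LHX1 did not pass, and the log2 fold changes of MESP2 and LHX1 turned from 0.88 and 0.74 to -0.72 and -0.90 without 2_3. None of the 6 regulators tested between days 11 and 20 passed, where 1.55% of 21398 genes did, 1.12% higher and 0.435% lower. The value for EOMES in that comparison was 0.86 ± 1.13 with 2_3 and -1.98 without it, and neither passed (adjusted p = 0.766 and 0.143). Leaving 2_3 out, the day 20 means were 0.334 ± 0.223 TPM for EOMES, 1.09 ± 0.607 for LHX1, 1.13 ± 1.42 for GSC and 2.01 ± 1.75 for MIXL1 (mean ± SD, n = 2). GSC was at 0.127 TPM in plate 2 and 2.13 TPM in plate 6, which itself had counts for 132 of the 174 silent genes. Comparisons of day 9 and of day 20 with day 4 share the day 4 libraries.

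The ligands and inhibitors of the streak were tested beside the regulators as a list of 12 genes. Between days 4 and 9, 4 of the 12 were higher, 4 were lower and 4 did not pass, with a median log2 fold change of 0.46. Over all genes tested 24.3% were higher and 24.7% lower, with a median of 0.01, and the counts of each list between these days are to be read against those shares. The Wnt ligand WNT3, which starts the streak in the mouse, rose from 1.37 ± 0.473 to 19.0 ± 3.41 TPM, together with BMP4 and FGF17, and NODAL did not pass (3.28 ± 1.61 and 5.97 ± 4.06 TPM, adjusted p = 0.282). The largest decreases were in FGF4, TDGF1, which encodes the co-receptor of NODAL and went from 482 ± 262 to 46.9 ± 32.3 TPM, and LEFTY2, an inhibitor of NODAL. WNT3 was still at 11.2 to 11.9 TPM in the day 11 libraries. Against day 9, where 1.39% of all genes tested were higher and 1% lower, TDGF1 had fallen again (adjusted p = 0.0328) and FGF8 had risen, to 40.4 to 192 TPM (adjusted p = 0.0490).

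Among 14 other genes of the streak and nascent mesoderm, 13 were tested between days 4 and 9, of which 7 were higher and 5 lower, with a median log2 fold change of 1.74. The Wnt target SP5 rose from 0.754 ± 0.0592 to 50.7 ± 7.66 TPM, while AXIN2, a target of the same pathway, fell from 30.6 ± 0.493 to 12.7 ± 2.93 TPM. APLNR, the apelin receptor of early mesoderm, rose from 0.634 ± 0.254 to 245 ± 97.4 TPM and SNAI2 from 0.514 ± 0.406 to 120.1 ± 18.7 TPM, and the posterior gene EVX1 was also called, listed at 0 in all 3 day 4 libraries and at 1.80 to 2.60 TPM on day 9. The decreases included the posterior gene CDX4, which went from 5.99 ± 0.540 to 0.159 ± 0.0950 TPM, and ZIC2.

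The presomitic list, genes that act with TBX6, MSGN1 and MESP2, had 9 of 12 genes tested between days 4 and 9, with 6 higher, 2 lower and a median log2 fold change of 1.95. DLL1, a Notch ligand of the presomitic mesoderm, was at 33.8 ± 6.13 and 29.3 ± 7.83 TPM and did not pass (adjusted p = 0.535), and DLL3 rose from 15.1 ± 3.79 to 39.3 ± 27.4 TPM. UNCX, MEOX1 and MEOX2 were among those that rose, and the decreases were in TCF15 and LFNG. RIPPLY1, which shuts off the segment genes, was too low to be tested, at 3.23, 0.154 and 7.96 TPM in day 9 plate 2, plate 6 and the library with no plate number. In contrast, 13 of the 14 genes of cardiac and lateral plate mesoderm were higher on day 9 and none lower, with a median log2 fold change of 7.82. HAND1 was at 248 to 556 TPM and GATA4 at 137 to 189 TPM in the day 9 libraries, against a highest value of 29.6 TPM for any of the 10 regulators in a day 9 library. Not all of the list was so high, with NKX2-5 at 11.2 to 28.9 TPM and TBX5 at 9.86 to 31.7 TPM in those libraries.

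Of the 8 definitive endoderm genes, all 8 were higher on day 9 than on day 4, with a median log2 fold change of 7.64. SOX17, which EOMES activates in the endoderm, went from 0.0478 ± 0.0828 to 49.0 ± 18.8 TPM and fell again by day 11 (log2 fold change -2.80, edgeR adjusted p = 0.0240). EOMES was lower on day 11 too, and a link between the genes was not tested here. Of the 9 tested genes beside FOXF1 in splanchnic and other mesenchymal mesoderm, 8 were higher on day 9 and BARX1 was lower, with a median log2 fold change of 7.15, or 6.74 with FOXL1, which had no count on day 4, at its lower bound. FOXF2, the paralog of FOXF1, rose from 0.0934 ± 0.0487 to 29.8 ± 7.34 TPM. Of the 8 intermediate mesoderm genes, where LHX1 also acts, 4 were tested and 3 were higher (OSR1, SIX2 and SALL1), and PAX2 and PAX8, the defining genes, stayed under 1 TPM in every library of days 0 to 11. All 6 stem cell markers were lower on day 9, and POU5F1 was at 1259 ± 196 and 90.6 ± 27.0 TPM.

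Lists of other cell types were counted beside these. Between days 4 and 9, 3 of 4 tested cardiomyocyte markers, 2 of 3 endothelial markers and 2 of 4 late endoderm markers were higher and none was lower, and neither of the 2 neural genes tested (PAX6 and OTX2) passed. Neural genes of tissues that also use EOMES were low, with TBR1 between 0.0572 and 0.274 TPM and NEUROG2 between 0.0592 and 0.240 TPM in the day 9 libraries. None of the 4 late kidney markers had enough counts to be tested, and their sum on day 9 was 0.473 to 1.65 TPM. Between days 9 and 11, where 1.39% of all genes tested were higher and 1% lower, MYH6, ACTN2 and TNNT2 of the cardiomyocyte markers were higher. AFP of the late endoderm was higher too. No gene of the presomitic, intermediate mesoderm, neural or endothelial lists passed (10, 5, 2 and 4 tested). At those shares this does not show a lack of change, and the median log2 fold change of the endothelial list was 2.79.

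The genes most like each regulator were found by Pearson's r of log2(CPM + 1) over the 15 libraries among 16752 protein-coding genes averaging 1 CPM or more on some day. The points share depth and the library 2_3, so the values are a description. For EOMES they were PSKH2 (r = 0.985), UNCX (0.972) and INSRR (0.960), and PSKH2 also led by Spearman's rho (0.971) and without 2_3 (0.991). For MESP1, PSD2 led in all 3 ways (0.963, 0.954 and 0.971), and SOX17 was the third by Pearson's r with and without 2_3 (0.939 and 0.958). For FOXF1 they were MAB21L2 (0.975) and HOXB6 (0.972), and HOXB6 led without 2_3 (0.991) and by Spearman's rho (0.958). MESP2 had WNT3A in the second place by both measures over 15 libraries (0.939 and 0.925), but WNT3A was not among its first 3 genes without 2_3. TBXT and GSC had MUC2 (0.987) and MOBP (0.982) in the first place, and none of their first 3 genes was shared with Spearman's rho, with at least 10 counts in 5 of the 15 libraries for each of the pair.

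Genes next to the regulators included several that were on at every day. ACBD3, 36877 bases from MIXL1, had day means between 55.6 and 137 TPM, AATF, 12140 bases from LHX1, between 36.4 and 53.1 TPM, PPP4C, 15946 bases from TBX6, between 75.8 and 121 TPM, and SMC6, 16218 bases from MSGN1, between 23.2 and 56.2 TPM. LHX1-DT, a non-coding RNA that starts 115 bases from LHX1 on the other strand, went with LHX1 from 0.999 TPM on day 4 to 3.36 TPM on day 9.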

How the data were processed

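The authors made stranded total RNA libraries, sequenced them as paired reads, aligned them to GRCh38 (hg38 in the submitters' processing notes, with STAR 2.5.2b) with Ensembl 79 genes and counted reads per gene with featureCounts 1.5.1, removing ribosomal and mitochondrial genes. The deposited count table holds raw read counts and the deposited TPM table holds TPM values made by the authors. The deposited sample table gave the RNA integrity score and the fraction of uniquely mapped reads. Coordinates are from GENCODE v44 and upstream sequences from RefSeq.

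Counts were tested between pairs of days with edgeR 4.0.16 (quasi-likelihood test in R 4.3.3, TMM scaling, filterByExpr with a minimum count of 10, Benjamini-Hochberg adjustment over all genes tested), with the libraries of both days only. Alternatives were DESeq2 1.42.0, limma 3.58.1 on log2(TPM + 1) and log2(TPM + 0.1), other filters and scaling, all 15 libraries in one fit, the lane or plate number as a block, and leaving out each library. TPM was also rescaled without genes whose length, worked back from counts and TPM, was under 200 bases. This moved the day 0 means of TBXT and MESP2 and the day 9 mean of MIXL1 by more than their SD. Single genes were also tested by a two-sided exact permutation test on log2(CPM + 0.5), which cannot go below 0.1 with 3 libraries against 3. The fits were tested on simulated data. Named genes of a list were the 3 with the largest increase and the 3 with the largest decrease past the threshold, together with the first entries of the list. One gene that this rule names is not reported here. The members and lists were chosen with earlier results of these data known. Intervals cover counting error only.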

Additional observations from a re-analysis of the deposited data

How the results depend on the processing

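Between days 4 and 9, 7 of the regulators passed in the main analysis and 7 to 8 when single libraries were left out, with 8553 to 10514 genes called in all, against 6209 in the fit of all 15 libraries. Between days 9 and 11 the number of regulators called was 1, and became 3 with DESeq2, 2 without the filter on low counts, 0 in the fit of all 15 libraries, 4 with the lane as a block and 0 to 3 when single libraries were left out. Genes called there numbered 1595 with DESeq2, 1016 without the filter and 0 to 573 when single libraries were left out. Between days 0 and 4, 64 genes were called without the filter. Between days 11 and 20, 1 regulator was called in the fit of all 15 libraries, and the genes called numbered 1997 with DESeq2, 3132 in the fit of all 15 libraries, 137 with the lane as a block and 0 to 510 when single libraries were left out. That regulator had too few counts for the main test. Between days 4 and 20, 5 regulators and 10265 genes were called in the fit of all 15 libraries, and 1 to 4 regulators and 3027 to 10635 genes when single libraries were left out. Besides MESP1 and FOXF1, the 5 were regulators with too few counts for the main test. Among such genes TBXT had 106 of its 126 day 20 counts in library 2_3, EOMES 123 of 135 and GSC 46 of 59. The cause of the differences between analyses was not tested.

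With the plate number as a replicate block, 4 regulators (MESP1, MESP2, TBX6 and GSC, and not EOMES, adjusted p = 0.0576 in edgeR) and 1971 genes were called between days 9 and 11, and 3 genes between days 11 and 20. Only 2 plate numbers were shared between these days, and deviations of same-plate libraries correlated at 0.168 and 0.395 between days 9 and 11, so the numbers were not taken to pair the samples.

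Log2 fold changes that turned in sign had not passed the test. Leaving out single libraries, they ranged between days 0 and 4 from -0.094 to 0.80 for MIXL1, from -0.33 to 0.47 (with a second negative value of -0.04) for TBX6 and from -0.30 to 1.10 for LHX1. Between days 11 and 20 they ranged from -1.98 to 1.36 for EOMES, from -0.10 to 0.82 for MESP1 and from -0.56 to 0.0029 for TBX6. EOMES was also at -0.28 with limma on log2(TPM + 0.1), -0.51 with the lane as a block and -0.033 with the plate number as a block, where TBX6 was at 0.037. Between days 4 and 20 they ranged from -0.72 to 1.28 for MESP2 and from -0.90 to 1.17 for LHX1, which was at -0.030 with the lane as a block.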
